A study of Mus musculus with 6 samples.

Results

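The genes described here encode the enzymes that write and erase DNA methylation and the core of a Polycomb complex, and they were followed in whole lungs of mouse embryos with and without Dppa2. A list of 10 genes was taken by symbol: Dnmt1, Dnmt3a, Dnmt3b, Uhrf1, Tet1, Tet2, Tet3, Ezh2, Eed and Suz12. Of the 18221 genes that the arrays could name, 9 of these 10 had a probe, with 16 probes in all. No probe was paired with Tet1 by the names used here. Of the 16 probes, 15 lay well above background on all 6 arrays and were tested, which covers all 9 genes, and the last, a Tet3 probe, was above background on 1 array only.

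The study compared lungs of 3 wild type embryos (15-1+/+ and 15-2+/+) with those of 3 knockout embryos (15-1Flox/Flox and 15-2-/-), all at E18.5, shortly before birth. ECAT15-2 is Dppa2 and ECAT15-1 is Dppa4, related nuclear proteins of pluripotent cells, so every knockout embryo carried a floxed Dppa4 allele pair beside the null Dppa2 alleles. The strain was a mixture of 129Sv, C57/BL6 and a Cre or FLPe line whose background the labels call unknown. Each array held RNA of 1 lung, and the whole organ was taken, so that fewer cells of a type and less RNA per cell cannot be told apart in any value below.

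In mammals a methyl group on the cytosine of a CG site is set by Dnmt3a and Dnmt3b and copied at each DNA replication by Dnmt1, which Uhrf1 brings to the newly made strand. The Tet enzymes oxidise the methyl group, which begins its removal. Polycomb repressive complex 2 (PRC2), built of Ezh2, Eed and Suz12, methylates lysine 27 of histone H3 (H3K27) at repressed developmental genes. Dppa2 and Dppa4 are known from stem cells as proteins that keep a set of CG-rich promoters free of DNA methylation. Neither DNA methylation nor a histone mark was measured here, only RNA.

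Promoter sequences of 4 members are shown as a description, and whether they bear on the levels was not tested. Uhrf1 varied most over the 6 arrays among the tested members, Ezh2, like Uhrf1, was lowest in wild types 1 and 2, Tet2 had the smallest p, and Suz12 holds another word of the same type, while at its brighter probe the lowest array was knockout 1. The lines give the 250 bases before the start of the gene in the RefSeq table of GRCm38.p6, 5′ to 3′ on the strand of the gene, and capitals mark 8-base words of the E2F type, sites that the E2F factors of the cell cycle are known to bind.
Uhrf1, second annotated start (chr17:56304063-56304312, plus strand): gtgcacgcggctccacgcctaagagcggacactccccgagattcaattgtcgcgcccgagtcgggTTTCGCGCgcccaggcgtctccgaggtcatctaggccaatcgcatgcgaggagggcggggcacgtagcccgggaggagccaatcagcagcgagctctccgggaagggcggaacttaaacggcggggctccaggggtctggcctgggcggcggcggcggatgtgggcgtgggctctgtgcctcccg
Suz12 (chr11:79992856-79993105, plus strand): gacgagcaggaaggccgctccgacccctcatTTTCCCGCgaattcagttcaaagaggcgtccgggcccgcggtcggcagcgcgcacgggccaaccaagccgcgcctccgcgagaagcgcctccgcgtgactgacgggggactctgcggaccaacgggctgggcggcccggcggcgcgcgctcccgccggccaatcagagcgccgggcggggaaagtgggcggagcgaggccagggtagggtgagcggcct
Ezh2 (chr6:47595031-47595280, minus strand): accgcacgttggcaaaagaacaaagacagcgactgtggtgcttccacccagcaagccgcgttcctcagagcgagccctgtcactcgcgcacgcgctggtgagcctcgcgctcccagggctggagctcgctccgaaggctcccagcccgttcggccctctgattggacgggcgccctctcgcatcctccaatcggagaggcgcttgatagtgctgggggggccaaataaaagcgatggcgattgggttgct
Tet2 (chr3:133544391-133544640, minus strand): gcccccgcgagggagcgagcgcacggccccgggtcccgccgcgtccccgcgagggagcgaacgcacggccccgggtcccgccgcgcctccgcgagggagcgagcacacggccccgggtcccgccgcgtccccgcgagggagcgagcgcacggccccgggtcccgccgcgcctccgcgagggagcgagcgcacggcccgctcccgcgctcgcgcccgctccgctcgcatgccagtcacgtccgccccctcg

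The words searched were TTTCCCGC, TTTGGCGC, TTTGCCGC and TTTCGCGC on both strands of the 300-base window that runs from 250 bases before to 50 bases after the start. Relative to the start, TTTCGCGC began at base -185 in Uhrf1, and TTTCCCGC at base -219 in Suz12. In Ezh2 the word TTTGGCGC began 3 bases past the start, outside the printed stretch. The third annotated start of Dnmt1 had 2 such words, 1 on each strand. Among the 15 windows of the 10 genes, 4 windows of 4 genes held a word, and 2.26% of 32851 windows of this length over all genes did. All 4 words searched contain CG, and the share over all genes was not matched for CG density. The 2 shares therefore do not show an excess of such words in the members. The windows of Tet2 and Eed held 0 words. The 300-base windows of the 4 starts shown were dense in CG sites, with 57 in Tet2, 33 in the second Uhrf1 window, 41 in Suz12 and 31 in Ezh2. The median over all windows was 7 (quartiles 3 and 20). The printed 250 bases alone held 51, 30, 37 and 23 in the same order. Not all member windows were dense. The lowest member window, the first of Dnmt1, had 2. A match to letters is a description of the sequence and not of a bound site.

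None of the 9 measured genes passed the threshold for a difference in RNA level between the groups. Levels are log2 intensities relative to the 75th percentile of the array, which lay between 1521.6 and 1687.9 intensity units, so that 0 is that percentile. A difference is knockout minus wild type on this log2 scale. It was tested with limma over 26666 probes, and a probe was called at an adjusted p under 0.05. Of the 15 member probes 0 were called, against 1.37% of all probes tested (365, of which 204 were higher and 161 lower). That split was 79 higher and 176 lower after quantile normalization, 78 and 173 in the log2 table of the authors, and 108 and 282 after median scaling. At an unadjusted p under 0.05 the member count was 1, against 24.9% of all probes, and after adjustment it was 0 in each of the 20 alternatives tested with limma. The median of the member differences was 0.07, against 0.02 over all probes, and the median size without sign was 0.214 against 0.199. Member differences ran from -0.29 to 0.62, and 11 of 15 were positive, against 52.7% of all probes. By brightest probe 7 of 9 genes were positive, but 3 of 9 with median scaling, which moves all probes down, and 6 of 9 after quantile normalization.

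**Figure D1:**
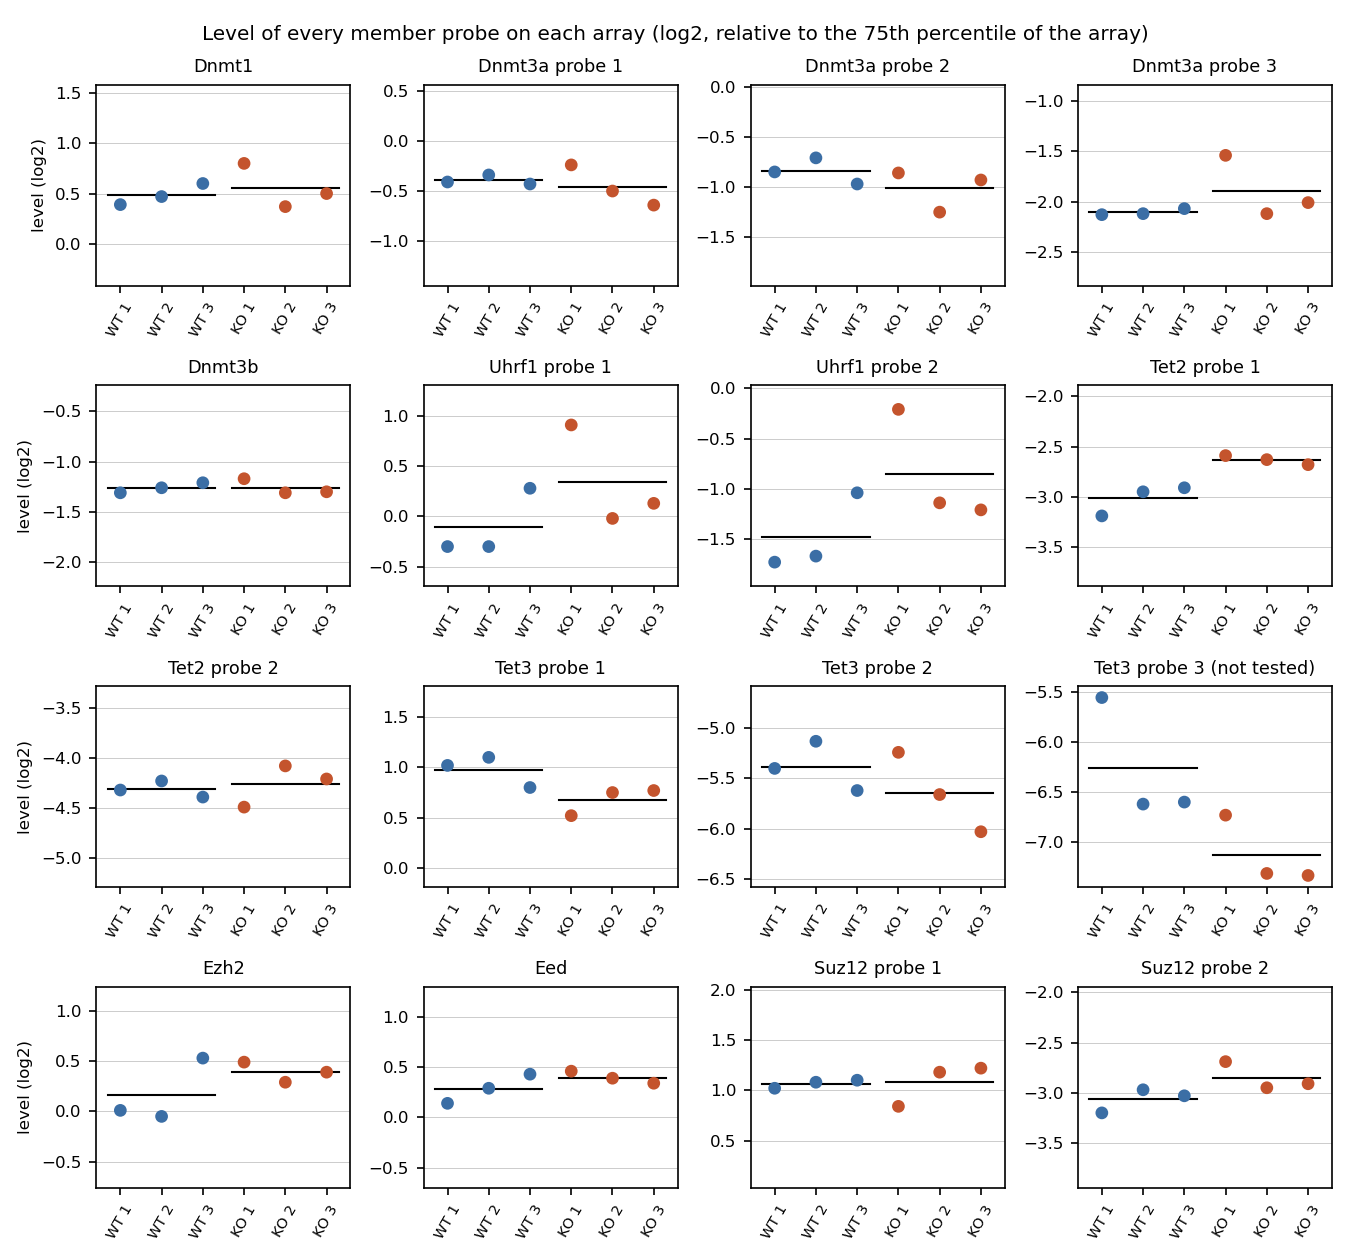
Level of each of the 16 member probes on the 3 wild type (WT, blue) and 3 knockout (KO, orange) arrays, in log2 units relative to the array's 75th percentile; bars are group means, and every panel spans 2 log2 units around its own centre. The groups overlap in all panels except Tet2 probe 1, Suz12 probe 2, Tet3 probe 1 and the untested Tet3 probe 3.

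The arrays did not differ by genotype alone, and this bears on each value that follows. Probes of Ddx3y, Eif2s3y, Kdm5d and Uty, on the Y chromosome, were above background in wild types 1 and 2 alone, and Xist probes on the other 4 arrays alone. Wild types 1 and 2 also shared a number in the name of their raw files and, with knockout 3, a slide. Wild type 3 and knockout 3 shared another such number, and knockouts 1 and 2 a further number and slide. Wild type 3 was alone on its slide, so it shared none with knockout 3. Genes of mitosis followed this split: all 19 tested genes of a mitosis list had their lowest levels in wild types 1 and 2, against 20.4% of all probes, with a list mean of 0.35 and 0.34 on these arrays, 1.42 in wild type 3, and 1.59, 1.34 and 1.35 in knockouts 1, 2 and 3. A list of DNA replication genes had its mean at 0.52, 0.60 and 1.06 in wild types 1, 2 and 3 and at 1.45, 0.86 and 0.80 in knockouts 1, 2 and 3, so that knockout 1 was highest. Member results are therefore set beside the slide 1 difference (knockout 3 against wild types 1 and 2), by the difference of knockout 3 and wild type 3, and by the fit that gives wild types 1 and 2 a term of their own. The first 2 have 1 knockout array each, and the second and the fit both rest on wild type 3 as the only wild type that enters the difference. Both therefore also set wild type 3 against knockouts on other slides.

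Of the maintenance genes, Uhrf1 varied more over the 6 arrays than any other tested member, and its groups overlapped. Uhrf1, the adaptor that recognises half-methylated DNA, was read by 2 probes named by the same transcript. At the brighter probe the levels were -0.30, -0.30 and 0.28 in wild types 1, 2 and 3 and 0.91, -0.02 and 0.13 in knockouts 1, 2 and 3. Knockout 1 was the highest array, wild types 1 and 2 were the lowest, and wild type 3 lay above knockouts 2 and 3. The difference was 0.44 (SE 0.27, 95% confidence interval -0.20 to 1.09, adjusted p = 0.352). The second probe gave -1.73, -1.67 and -1.04 in wild types and -0.21, -1.14 and -1.21 in knockouts, with a difference of 0.62 (SE 0.30, adjusted p = 0.251). At both probes knockout 1 was the highest and wild types 1 and 2 the lowest.

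On slide 1 the Uhrf1 differences were 0.43 and 0.49 at the brighter and the second probe. Knockout 3 minus wild type 3 gave -0.15 and -0.17. In the fit with the added term they were 0.06 and 0.18. Without knockout 1 the brighter probe differed by 0.16, and without wild type 3 by 0.64, neither of which passed. The sign was thus negative for knockout 3 against wild type 3 and positive, but near 0 at the brighter probe, for all knockouts in the fit with the added term. The share of this pattern that the split by Y-linked signal, slide or cell cycle genes accounts for was not tested.

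The genes with the most similar pattern to Uhrf1 were sought over the 6 arrays, by the root mean square distance between levels after each gene was centred on its own mean. The nearest of 13929 genes were Gins2 (distance 0.0923 on the log2 scale), Fen1 (0.0945), Mcm5 (0.0953), Mybl2 (0.0998) and Tedc1 (0.107), where the median distance over all genes was 0.451. Mcm5, for example, had levels of 1.41, 1.38 and 2.05 in wild types and 2.44, 1.48 and 1.74 in knockouts. The 6 arrays behind these distances carry the split described above.

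Dnmt1, the methyltransferase that copies the methylation pattern, was read by 1 probe. Its levels were 0.39, 0.47 and 0.60 in wild types 1, 2 and 3 and 0.80, 0.37 and 0.50 in knockouts 1, 2 and 3. The highest array was again knockout 1, but knockout 2 was the lowest, and the groups overlapped. The difference was 0.07 (SE 0.14, interval -0.27 to 0.40, adjusted p = 0.796), and without knockout 1 it was -0.06. On slide 1 it was 0.07, and knockout 3 lay 0.11 below wild type 3 (-0.11).

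**Figure D2:**
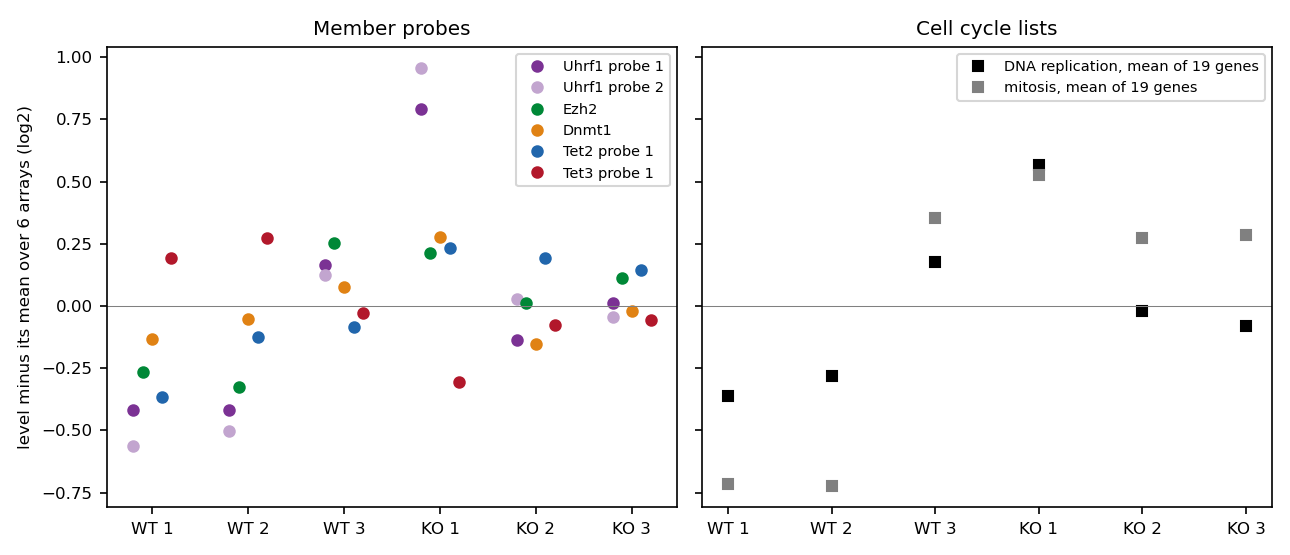
Level minus its own mean over the 6 arrays (log2) for 6 probes of the members (left) and for the means of a DNA replication and a mitosis list of 19 genes each (right), on wild type (WT) and knockout (KO) arrays. Both Uhrf1 probes and Ezh2 are lowest in wild types 1 and 2, as are both lists, and both Uhrf1 probes and both lists are highest in knockout 1.

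Neither of the de novo enzymes was called. Dnmt3b, which methylates repeats and gene bodies early in development, was the least variable member, with levels of -1.31, -1.26 and -1.21 in wild types and -1.17, -1.31 and -1.30 in knockouts. All 6 arrays of Dnmt3b spanned 0.14 in all, and the group means were equal to 2 decimals, at -1.26 (SD 0.05 and 0.08, n = 3 each). In the main fit the interval of its difference ran from -0.24 to 0.24 (adjusted p = 0.999). That range does not reach a 1.5-fold change in either direction. With another background correction (normexp) the Dnmt3b difference was 0.22 with a larger SE, 0.27 against 0.10, so the bound is given for the main fit.

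Dnmt3a, the de novo enzyme that stays active in differentiated tissue, was read by 3 probes. The brightest, named by the transcript NM_153743, gave -0.41, -0.34 and -0.43 in wild types and -0.24, -0.50 and -0.64 in knockouts. The other 2 are named by NM_007872, and read -0.85, -0.71 and -0.97 against -0.86, -1.25 and -0.93 at one, and -2.13, -2.12 and -2.07 against -1.54, -2.12 and -2.01 at the other. The wild type arrays lay within 0.26 of each other at every probe, and the knockouts spread more widely, by 0.39 to 0.58. The differences were -0.07, -0.17 and 0.21 (SE 0.13, 0.14 and 0.16), so that the probes did not share a sign, and none passed (adjusted p between 0.451 and 0.782). At the dimmest probe knockout 1 lay 0.53 above the mean of knockouts 2 and 3, and without it the difference was 0.04.

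Among the Tet genes, Tet2 and Tet3 differed in opposite directions at their brightest probes, and neither passed. Tet2, an oxygenase known from blood cell development, read -3.19, -2.95 and -2.91 in wild types and -2.59, -2.63 and -2.68 in knockouts at this probe. All knockouts lay above all wild types, and the knockouts were within 0.09 of each other. The difference was 0.38 (SE 0.12, 1.3-fold, interval 0.11 to 0.66), with the smallest p of any member (unadjusted p = 0.0129, adjusted p = 0.113). On slide 1 it was 0.39, for knockout 3 minus wild type 3 0.23, and in the fit with the added term 0.27. Several of the 21 alternatives are not separate checks, since changes of filter and the replicate block leave the difference at 0.38 by construction. The Tet2 difference was positive in each of the 21 (0.23 to 0.82), and called in none of the 20 that have a test. A second Tet2 probe did not share this, with -4.32, -4.23 and -4.39 in wild types, -4.49, -4.08 and -4.21 in knockouts, and a difference of 0.06 (SE 0.13, adjusted p = 0.827). The Tet2 result thus rests on 1 of 2 probes of the same transcript.

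Tet3, the oxygenase best known from the zygote and from neurons, read 1.02, 1.10 and 0.80 in wild types and 0.52, 0.75 and 0.77 in knockouts at its brightest probe. All knockouts lay below all wild types, but wild type 3 and knockout 3 were only 0.03 apart. The difference was -0.29 (SE 0.13, 1.23-fold, interval -0.60 to 0.01, adjusted p = 0.215), and -0.12 in the fit with the added term. A second probe, nearer to background, gave -5.40, -5.13 and -5.62 against -5.24, -5.66 and -6.03, a difference of -0.26 (SE 0.22, adjusted p = 0.502). At this probe the value was -0.76 on slide 1 (adjusted p = 0.0566), -0.41 for knockout 3 minus wild type 3, -0.02 in the fit with the added term and 0.91 with normexp. The third Tet3 probe was well above background in wild type 1 alone and gives no fold.

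Groups that do not overlap were found at 2 member probes with the knockouts higher, Tet2 and the dimmer Suz12 probe, against 17.3% of all probes. They were found at 1 with the knockouts lower, the brightest Tet3 probe, against 13.3% of all probes. With 15 probes these counts are near the shares over the whole array.

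**Figure D3:**
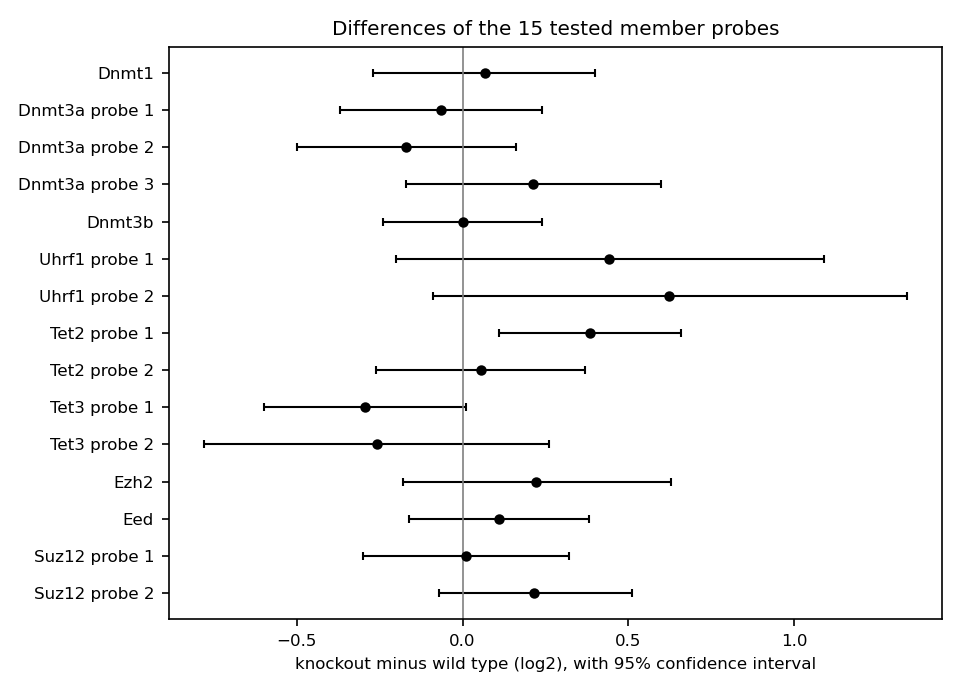
Knockout minus wild type difference (log2) of the 15 tested member probes, as points with 95% confidence intervals from limma (3 arrays per group). The interval of Tet2 probe 1, 0.11 to 0.66, leaves out 0, and the widest intervals are those of the Uhrf1 probes.

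The PRC2 core genes were likewise not called. Ezh2, the subunit that carries the histone methyltransferase, read 0.01, -0.05 and 0.53 in wild types 1, 2 and 3 and 0.49, 0.29 and 0.39 in knockouts. Wild types 1 and 2 were the lowest arrays, and wild type 3 was the highest of all 6. The difference was 0.22 (SE 0.17, interval -0.18 to 0.63, adjusted p = 0.456). On slide 1 it was 0.40, while knockout 3 minus wild type 3 and the fit with the added term both gave -0.15. The sign of the Ezh2 difference thus turned with the wild type arrays used, and the part of the cell cycle genes in this was not tested.

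Eed, the subunit that binds methylated H3K27, read 0.14, 0.29 and 0.43 in wild types and 0.46, 0.39 and 0.34 in knockouts. Wild types 1 and 2 were again the lowest, by a small margin, and the difference was 0.11 (SE 0.12, interval -0.16 to 0.38, adjusted p = 0.587). Suz12, which holds the complex together, read 1.02, 1.08 and 1.10 in wild types and 0.84, 1.18 and 1.22 in knockouts at its brighter probe, a difference of 0.01 (SE 0.13, interval -0.30 to 0.32, adjusted p = 0.966). Knockout 1, the highest array for Uhrf1 and Dnmt1, was the lowest for Suz12 at this probe. At the dimmer Suz12 probe the levels were -3.20, -2.97 and -3.03 against -2.69, -2.95 and -2.91, a difference of 0.22 (SE 0.12, adjusted p = 0.319), and knockout 1 was the highest there.

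Wild types 1 and 2 were both below the other 4 arrays at 5 of the 15 member probes, those of Uhrf1 (2 probes), Ezh2, Eed and the brightest of Tet2, against 20.4% of all probes. They were both above the others at 2 probes, a Dnmt3a and a Tet3 probe, against 15.7%.

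**Figure D4:**
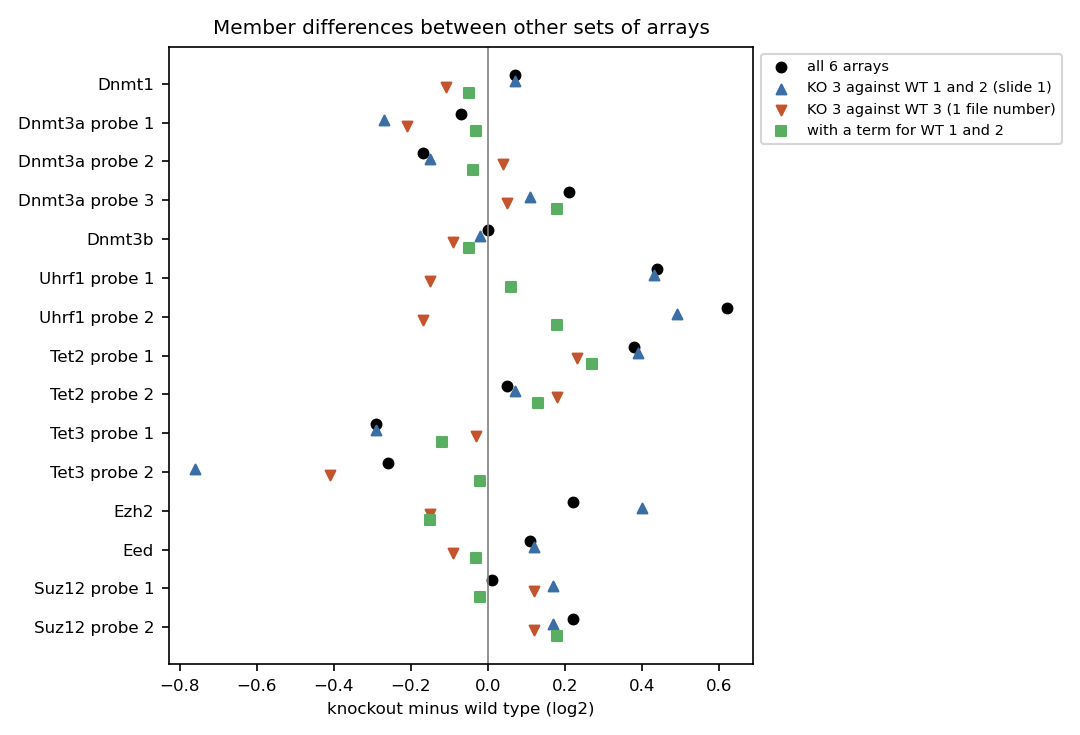
Knockout minus wild type difference (log2) of each tested member probe over all 6 arrays (circles), for knockout 3 against wild types 1 and 2 on slide 1 (upward triangles), for knockout 3 against wild type 3 with the same raw file number (downward triangles), and in the fit that adds a term for the first 2 wild types (squares); no error bars are drawn. Both Uhrf1 probes and Ezh2 are positive over all arrays and on slide 1 and negative between knockout 3 and wild type 3, while Tet2 probe 1 is positive in all 4. Knockout 3 and wild type 3 lay on different slides.

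Partner genes of the members were examined at their brightest probe, in lists drawn up by function, and 0 of 61 genes in the 4 lists that follow were called, against 1.37% of all probes, a share that gives under 1 gene in 61. Among the partners of DNA methylation, 25 of 27 genes were tested, 11 differences were positive and 14 negative (5 and 20 with median scaling), the median was -0.03, and 5 had an unadjusted p under 0.05, against 24.9% of all probes, so that the list was near the background. The smallest p belonged to Ogt, an X-linked enzyme that adds a sugar to proteins and binds Tet enzymes (difference 0.54, SE 0.12, adjusted p = 0.0699). Hells, a chromatin remodeller needed for DNA methylation, differed by 0.61 (adjusted p = 0.115), and Gadd45a, a stress protein linked to demethylation, by -0.50 (adjusted p = 0.121). Ogt read 0.83, 0.90 and 1.04 in wild types and 1.43, 1.63 and 1.34 in knockouts. Hells read -2.79, -2.50 and -2.17 in wild types and -1.62, -2.04 and -1.96 in knockouts. With both genes the groups did not overlap, and wild types 1 and 2 were the lowest arrays. Dnmt3l, the germ cell cofactor of the de novo enzymes, differed by -0.12 (adjusted p = 0.742), while Dppa3, which guards maternal methylation, did not pass the background filter.

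Of the PRC2 partners 9 of 11 genes were tested, with 4 positive and 5 negative differences, a median of -0.01 and 0 at an unadjusted p under 0.05. Phf19, a Polycomb-like protein that guides PRC2, differed by 0.25 (adjusted p = 0.286), and the histone-binding subunits Rbbp4 and Rbbp7 by -0.15 and 0.18 (adjusted p = 0.433 and 0.455). Ezh1, the other catalytic subunit, differed by 0.04 (SE 0.17). In PRC1, the Polycomb complex that adds ubiquitin to histone H2A, 21 of 23 genes were tested, with 7 positive and 14 negative differences (3 and 18 with median scaling, 10 and 11 with normexp) and a median of -0.07. Kdm2b, which brings a PRC1 form to CG-rich promoters free of methylation, had the smallest p, with levels of -0.62, -0.59 and -0.60 in wild types and -1.02, -1.26 and -0.94 in knockouts. The Kdm2b groups did not overlap, and its difference was -0.47 (SE 0.12, adjusted p = 0.084), -0.33 on slide 1 and -0.35 for knockout 3 minus wild type 3. Phc2 (-0.34, adjusted p = 0.16) and Pcgf5 (-0.23, adjusted p = 0.212) followed. Groups did not overlap at 6 of the 21 PRC1 genes, all lower in the knockouts, against 13.3% of all probes.

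Of the genes that remove the Polycomb marks 6 of 7 were tested and 2 had an unadjusted p under 0.05, against 24.9% of all probes. Kdm6a, an X-linked H3K27 demethylase known to escape X inactivation, read -1.74, -1.67 and -1.30 in wild types and -0.84, -0.96 and -0.96 in knockouts. Its difference was 0.65 (SE 0.14, adjusted p = 0.0663), and 0.34 for knockout 3 minus wild type 3, which both had Xist signal. Asxl1, a cofactor of the H2A deubiquitinase, differed by 0.26 (adjusted p = 0.165), and Usp16, another H2A deubiquitinase, by 0.15 (adjusted p = 0.475).

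The lists of the cell cycle had 0 called genes as well by limma, with 2 of 19 replication and 12 of 19 mitosis genes at an unadjusted p under 0.05, against 24.9% of all probes. In DNA replication 19 of 20 genes were tested, all 19 differences were positive, and the median was 0.27; Ccne2, a cyclin of entry into S phase, differed by 0.88 (adjusted p = 0.14), Rfc4 by 0.47 (adjusted p = 0.2) and Tyms by 0.45 (adjusted p = 0.281). In mitosis all 19 tested differences were positive too, with a median of 0.74, and Bub1b (0.71), Cenpa (0.68) and Top2a (0.93) had the smallest p (adjusted p = 0.115, 0.133 and 0.136). All 19 mitosis differences stayed positive under 4 other scalings, and those of replication in 16 with median scaling and 17 with normexp. For knockout 3 minus wild type 3 the medians of the replication and mitosis lists were -0.20 and -0.05.

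**Figure D5:**
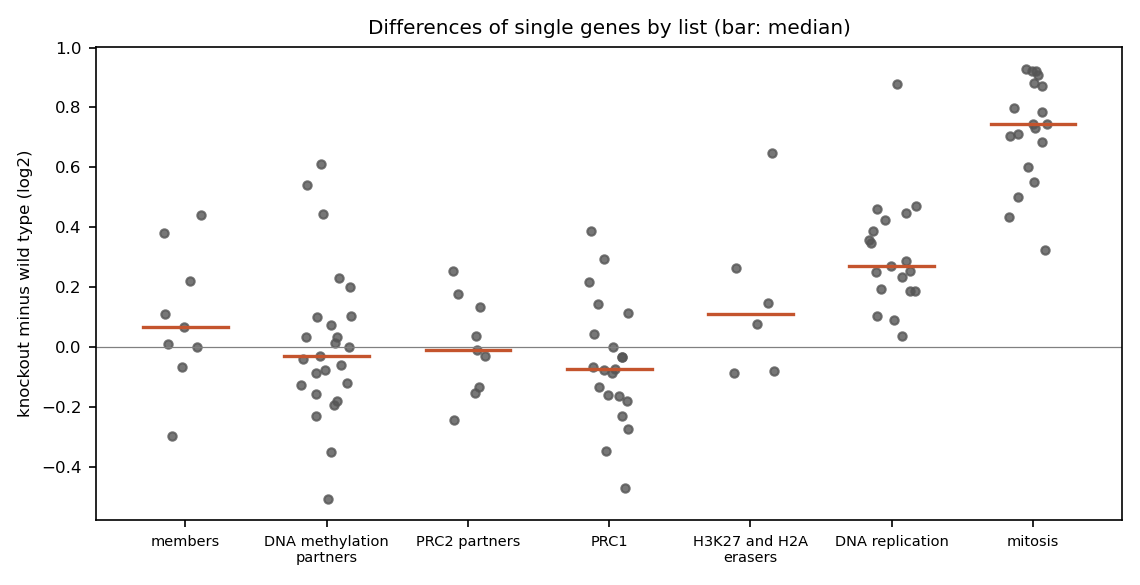
Knockout minus wild type difference (log2) of each tested gene (points, brightest probe, spread sideways at random for legibility) in the members and in 6 lists, with the median as a bar. The medians of the members and of the 4 lists of partners and erasers lie between -0.07 and 0.11, and those of DNA replication and mitosis at 0.27 and 0.74.

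Markers of the organ were strong in all 6 lungs. Of 9 lung epithelial markers all were tested and 0 were called. Their differences were positive in 2 and negative in 7, with a median of -0.18, against 52.7% positive over all probes. Sftpc, the surfactant protein of type 2 cells, had levels between 7.36 and 7.67 and differed by 0.125 (SE 0.12). The club cell gene Scgb1a1 differed most of the 9 (-1.73, SE 0.41, adjusted p = 0.073). The next smallest p belonged to Epcam (0.41, adjusted p = 0.129) and Sftpb (-0.48, adjusted p = 0.198). Endothelial and mesenchymal markers (5 each) had 0 called. Of 9 cardiac muscle markers 6 were called lower. Nkx2-5, Myl4, Myl7, Tnni3 and Tnnt2 differed by -1.73 to -1.42, Pln was not well above background in any knockout, and the list mean was -0.81 to -0.58 in wild types and -2.25 to -2.06 in knockouts. Of 4 tested leukocyte markers 1 fell, S100a8 (-0.98, adjusted p = 0.0358), and the list mean was 0.86 to 1.38 in wild types and 0.32 to 0.67 in knockouts, while the lymphocyte markers Cd3e and Cd79a did not pass the background filter. The 5 tested erythroid markers had 0 called and a mean of 1.06 to 1.59 against 0.65 to 1.14. The part of these cell types in the member values was not tested. The Dppa2 probe itself read -3.25, -3.52 and -3.57 in wild types and -4.94, -4.98 and -4.08 in knockouts (adjusted p = 0.0601), and whether it lies in the deleted part is not known here. Its signal was well above background on all 6 arrays, knockouts included, and that of the Dppa4 probe on none.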

How the data were processed

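RNA of 6 lungs was labelled with Cy3 and hybridised to 1-colour Agilent arrays of 44K spots. Per the file headers, the authors' deposited intensity values come from Agilent Feature Extraction 10.7.3.1, with background subtracted and trends removed within an array, no scaling between arrays, and a design on mm9. The authors also deposited log2 values, with the scaling not stated; they equal quantile-normalized log2 intensities minus the wild type median (r of 0.993 to 0.997, with direction and centring read from this comparison; column medians 0 in wild types and 0.0108, -0.00698 and -0.000844 in knockouts 1, 2 and 3).

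Probes were named by transcript accession through RefSeq genes on GRCm38.p6 (64.8% of 41174 probes). Between 77 and 110 of 43379 spots per array carried an outlier flag and were left out, none of them a member spot, and no spot was saturated. Each array's 75th percentile was subtracted from its log2 intensities. A probe entered the fit if either group had it well above background throughout (between 63.3% and 68.8% of probes lay above it per array). Groups were compared by probe by two-sided moderated tests of limma 3.58.1 (run under R 4.3.3, Benjamini-Hochberg adjustment, no covariate). The code of the fit was run on simulated data with independent noise. That simulation did not hold the split by Y-linked signal, slide or file number, so it says nothing on how the split affects the calls. Precision is limited by having 3 arrays a group. Nothing in the labels ties embryos to litters, so whether the embryos of a group are independent is not known. The p-values treat them as independent and rest on the spread of arrays within groups. That spread includes the split by Y-linked signal, slide and file number.

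Replicate numbers were treated as names, and the main fit used no pairing. Members and lists were chosen with earlier results of these data known. Named from each list of partners, erasers and cell cycle genes are the called genes or, where there were none, the 3 of smallest p. That rule did not cover the marker lists of cell types. Other genes in the text were chosen after their values were seen. The planned normexp correction used median in place of mean spot signals, a change made after seeing the data.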

Additional observations from a re-analysis of the deposited data

How the results depend on the processing

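The count of member probes called was 0 under all 20 alternatives that give a test (the smallest adjusted p was 0.0566, for the second Tet3 probe within slide 1, then 0.0887, for Tet2 without wild type 3). The signs of the Tet2 and Tet3 differences at the brightest probe held in all 21 alternatives, those of the other 7 genes did not. Several alternatives repeat the same difference by construction, so these are not 21 separate checks.

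The count of all probes called was 0 with normexp (1792 at an unadjusted p under 0.05), 33 without the background filter, 79 with the replicate block, 29 with the slide as a block, 2080 within slide 1, 4 with the raw file number as a block, 24 with a term for Y-linked signal and 0 by limma on the arrays without it (1836 at an unadjusted p under 0.05). Leaving out 1 array gave 39 (wild type 1) to 2175 (wild type 3). The replicate numbers were treated as names. Deviations of same-numbered arrays correlated at -0.0158, 0.0319 and 0.0201, and those of differently numbered arrays at -0.0733 to 0.0648. With 3 arrays a group this gives no sign of a pairing but cannot exclude one.

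With median scaling, which moved the median of all probes to -0.129, Dnmt1 was at -0.0804, Dnmt3b at -0.149, Eed at -0.0385 and Suz12 at -0.138; relative to that median these are 0.05, -0.02, 0.09 and -0.01. With normexp, where that median was 0.241, Dnmt3a was at 0.0394 and Suz12 at -0.0473. Dnmt3b was at -0.0661 with quantile normalization, at -0.0662 in the deposited log2 table, at -9.1e-06 with outlier spots kept, and at -0.0154 with the slide as a block and within slide 1. With the raw file number as a block, and between wild type 3 and knockout 3, Dnmt1 was at -0.107, Dnmt3b at -0.0923, Eed at -0.0873, Ezh2 at -0.147 and Uhrf1 at -0.151. With a term for Y-linked signal, and on the arrays without it, Dnmt1 was at -0.0484, Dnmt3b at -0.0509, Eed at -0.0305, Ezh2 at -0.146 and Suz12 at -0.0234. Leaving out 1 array gave ranges of -0.0552 to 0.163 for Dnmt1, -0.176 to 0.0241 for Dnmt3a, -0.0461 to 0.0261 for Dnmt3b and -0.0582 to 0.13 for Suz12. The cause of these turns was not tested. Under normexp the second Tet3 probe was at 0.91 (SE 0.88) and the second Tet2 probe at 0.87 (SE 0.75), both dim; the cause was not tested.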
